A study of Arabidopsis thaliana with 6 samples.

Results

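The genes described here are 35 protein-coding genes of the Arabidopsis thaliana plastid genome that serve photosynthesis: the genes named psa, psb, pet and atp, the gene rbcL, and ycf3 and ycf4. They were chosen by identifier, and they are 35 of the 133 plastid rows and of the 36917 genes in the count files. All 35 had counts and passed the filter on low counts. The identifiers start with ATCG, and neither the count files nor the reference annotation pairs them with gene names. Genes were therefore placed in complexes and transcription units by hand, from the usual numbering of plastid loci, and a single gene is given by its identifier. The reference annotation itself lists 35 plastid genes with names of these kinds.

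The libraries came from fbn6-1 plants, which carry the allele of line GK_159E10 in the Col-0 ecotype (replicates 1, 2 and 3), and from Col-0 wild-type plants (replicates 2, 3 and 4). All plants were 3 weeks old and grew in soil under long days, and the source is given only as plants, without an organ. FBN6 encodes FIBRILLIN6, 1 of the fibrillins, proteins found with lipids in plastids, and the series compared mutant and wild-type transcripts. A single mutant line was measured, so effects of the allele and of anything else in that line cannot be told apart. Whether a replicate was its own plant or a pool is not labelled, so the p-values rest on a spread between samples that may be technical.

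Chloroplasts keep a small genome that encodes core subunits of the photosynthetic complexes, while most other subunits are encoded in the nucleus and imported. Photosystem II splits water, the cytochrome b6f complex passes electrons on, photosystem I drives the reduction of ferredoxin, and ATP synthase uses the proton gradient that results. Rubisco, whose large subunit is made in the plastid, fixes carbon dioxide. Many of these genes are transcribed together as units, as in bacteria, and are then cut and trimmed by nuclear-encoded RNA-binding proteins, so members of a unit share transcripts and are not independent measurements.

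FBN6 (AT5G19940) had 7, 3 and 3 counts in the fbn6-1 libraries, against 1845, 1557 and 2201 in the wild-type libraries, so the mutant labels match the data. Library totals ran from 8668956 to 12287197 counts. Root marker genes summed to between 0.0751 and 0.341 CPM (counts scaled to library totals of 1000000) in fbn6-1 and between 0 and 0.0879 CPM in wild type, with 5 of 9 at 0 in every library. Flower markers summed to between 0.958 and 1.70 CPM in fbn6-1 and between 1.41 and 1.99 CPM in wild type, with 1 of 7 at 0 in every library. The 5 markers of green leaf cells summed to between 19672 and 20631 CPM in fbn6-1, against 22533 to 23512 CPM in wild type. All 5 had a log2 fold change below 0 (median -0.22). In the edgeR quasi-likelihood test 0 were called at an adjusted p under 0.05, where 3.82% of all tested genes were. Without adjustment, 3 of the 5 (RBCS1A, LHCB2.2 and RCA) had a p under 0.05, where 17.8% of all tested genes had. The part of this marker level in the values below was not tested. In such bulk samples fewer cells of a type and less RNA per cell cannot be told apart.

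The share of plastid transcripts in the libraries differed between the genotypes by less than the spread between replicates. All plastid rows together held 59.4%, 59.9% and 62.1% of the counts in fbn6-1 replicates 1, 2 and 3, against 62.2%, 60.4% and 59.5% in wild-type replicates 2, 3 and 4, and the groups overlapped. The means were 60.5% ± 1.46 in fbn6-1 and 60.7% ± 1.37 in wild type (SD, n = 3 each; two-sided exact permutation p = 0.7). With 3 against 3 libraries the smallest p this test can give is 0.1.

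The 35 photosynthesis genes made up most of those plastid counts. Their share was 89.5%, 91.4% and 90.4% in fbn6-1, against 91.2%, 93.3% and 91.9% in wild type, with overlap between the groups (means 90.4% ± 0.929 in fbn6-1 and 92.1% ± 1.11 in wild type; exact permutation p = 0.2). ATCG00020, a photosystem II gene, alone took 42.5%, 47.2% and 45.3% of the plastid counts in fbn6-1, against 43.0%, 51.8% and 44.8% in wild type. With that gene left out of both sums, the other 34 genes held 81.8%, 83.7% and 82.4% in fbn6-1, against 84.5%, 86.2% and 85.3% in wild type. Every fbn6-1 library was then below every wild-type library, with a difference of -2.68 percentage points and the smallest p possible (exact permutation p = 0.1). These are shares of counts and are not corrected for gene length, so they do not rank the genes by transcript number.

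No member passed the test on the first scale used, TMM scaling of the library totals. Levels here are CPM after TMM scaling, which sets the bulk of all genes equal between libraries, and a gene was called at a Benjamini-Hochberg adjusted p under 0.05 over all 16584 tested genes in the edgeR quasi-likelihood test. Of the 35 members 0 were called, where 3.82% of all tested genes were called in either direction. DESeq2 also called 0 members, and 2 members had an unadjusted p under 0.05 in edgeR, ATCG00360 on the higher side and ATCG00350 on the lower side in fbn6-1, which is 5.71% of the members, where 17.8% of all tested genes had such a p. The median log2 fold change of the members, fbn6-1 over wild type, was -0.07, from -0.31 to 0.37, with 13 above and 22 below 0. The median over all tested genes was -0.00. The median SE of a member was 0.12, and the widest 95% interval, that of ATCG00590, ran from -0.77 to 0.90, so sizeable changes of that gene were not detectable with these libraries. The TMM factors were 1.09, 1.04 and 1.02 in fbn6-1, against 0.922, 0.949 and 0.998 in wild type, without overlap. With library totals and no TMM factors, ATCG00360 was called higher in fbn6-1 (log2 fold change 0.51, adjusted p = 0.0235, edgeR quasi-likelihood test).

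Scaling to the sum of the plastid rows, as CPM of the plastid counts (plastid CPM), asks instead whether a gene changed relative to other plastid transcripts. On this scale the median of all tested genes moved to 0.14, and that of the members was 0.07, with 23 above and 12 below 0, so the sign of the members' median depends on the scaling. A single gene, ATCG00360, was called higher in fbn6-1 and 0 were called lower, which is 1 of 35 members where 3.80% of all tested genes were called in either direction and 2.74% were called higher. Without adjustment, 6 members (17.1%) had a p under 0.05, all on the higher side, where 18.6% of all tested genes had, 2452 of those 3083 genes on the higher side. Values of the groups did not overlap for 7 members on the higher side, where 18.6% of all tested genes showed that, and for 0 members on the lower side, where 4.72% did. The members' count on the higher side is thus close to the background of all genes. Library totals without TMM factors gave similar values: a median of 0.13 over all tested genes and of 0.06 for the members, with 22 above and 13 below 0. The shift away from the TMM values is therefore not particular to scaling by plastid transcripts.

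**Figure D1:**
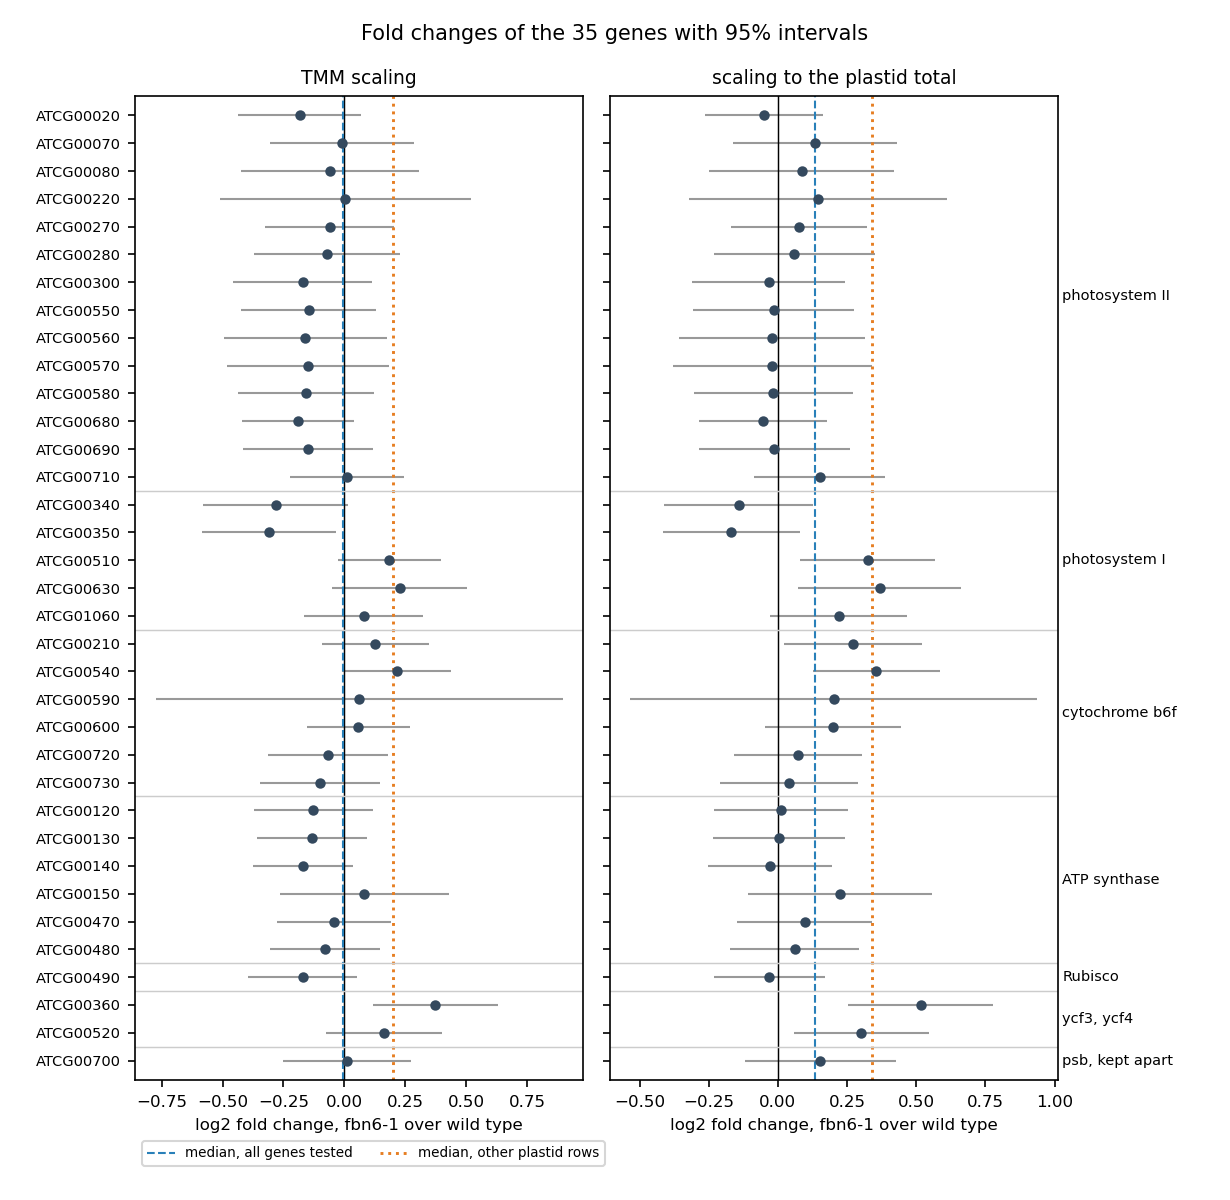
Log2 fold change, fbn6-1 over wild type, of each of the 35 genes with TMM scaling (left) and scaling to the plastid total (right). Points are edgeR estimates, bars are 95% intervals, and the dashed and dotted lines are the medians of all tested genes and of the other plastid rows; ATCG00360 lies farthest to the right on both scales, and ATCG00340 and ATCG00350 lie farthest to the left.

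The 14 photosystem II genes, which encode the reaction centre, inner antenna and small subunits of that complex, held 54.0%, 57.1% and 56.4% of plastid counts in fbn6-1, against 54.3%, 60.4% and 56.8% in wild type. The groups overlapped, and the means were 55.8% ± 1.66 in fbn6-1 and 57.2% ± 3.09 in wild type (exact permutation p = 0.5, adjusted over the 7 classes 0.583). Of the 14 genes 0 were called on either scale. With TMM scaling 12 of the 14 lay below 0 (median -0.15, from -0.19 to 0.01), and with scaling to the plastid total 8 did (median -0.01).

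ATCG00020, which holds most of the photosystem II counts, had 232847, 273571 and 276793 CPM in fbn6-1, against 291033, 330545 and 267937 CPM in wild type. Wild-type replicate 3 was the highest and fbn6-1 replicate 1 the lowest, and the groups overlapped. In the edgeR quasi-likelihood test its log2 fold change was -0.18 with TMM scaling (SE 0.12, adjusted p = 0.455) and -0.05 relative to the plastid total (adjusted p = 0.845). The other 13 photosystem II genes held 19.7% ± 0.80 in fbn6-1 and 19.8% ± 1.89 in wild type of the plastid counts without ATCG00020 (exact permutation p = 1).

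Among the photosystem II genes the lowest fold change was that of ATCG00680 and the highest that of ATCG00710, both in the psbB-psbT-psbH-petB-petD unit. ATCG00680 had 14587, 13742 and 15579 CPM in fbn6-1, against 18488, 15006 and 16657 CPM in wild type (log2 fold change -0.19, SE 0.11, adjusted p = 0.380). ATCG00710 had 2300, 2172 and 2530 CPM in fbn6-1, against 2624, 2137 and 2188 CPM in wild type (log2 fold change 0.01, SE 0.11, adjusted p = 0.974). The groups of both genes overlapped, and wild-type replicate 2 was the highest library for each.

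The estimates of the photosystem I genes differed in sign. The 5 genes together held 6.33%, 5.62% and 6.24% of plastid counts in fbn6-1, against 7.31%, 5.30% and 6.71% in wild type (means 6.06% ± 0.384 in fbn6-1 and 6.44% ± 1.03 in wild type; exact permutation p = 0.5, adjusted 0.583). Within them, the genes of the psaA-psaB unit, which encodes the large reaction centre subunits, lay below 0 on both scales, while the other 3 genes, ATCG00510, ATCG00630 and ATCG01060, lay above 0 on both. None of the 5 was called on either scale.

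For the psaA-psaB unit, ATCG00340 had 14545, 13502 and 16174 CPM in fbn6-1, against 21904, 14242 and 17634 CPM in wild type. ATCG00350 had 13988, 13719 and 15937 CPM in fbn6-1, against 21638, 15104 and 17291 CPM in wild type. In both genes wild-type replicate 2 was the highest library and fbn6-1 replicate 3 reached above wild-type replicate 3, so the groups overlapped. The log2 fold changes were -0.28 for ATCG00340 (SE 0.14, adjusted p = 0.313) and -0.31 for ATCG00350 (SE 0.13, unadjusted p = 0.0309, adjusted p = 0.222, edgeR quasi-likelihood test). Without wild-type replicate 3 both were called lower, each at -0.42 (adjusted p = 0.0228 for ATCG00340 and 0.0230 for ATCG00350), whereas without both that library and fbn6-1 replicate 2 neither was (adjusted p = 0.122 and 0.114). Over 15 alternative settings the fold change of ATCG00340 ran from -0.42 to -0.11 and that of ATCG00350 from -0.42 to -0.16.

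Of the remaining photosystem I genes, ATCG00630 in the petL-petG-psaJ unit had the highest fold change. It had 2830, 2377 and 2578 CPM in fbn6-1, against 2511, 1757 and 2381 CPM in wild type (log2 fold change 0.23, SE 0.13, adjusted p = 0.387). The groups overlapped with TMM scaling, since fbn6-1 replicate 2 lay below wild-type replicates 2 and 4. Relative to the plastid total they did not overlap, and the estimate was 0.37 on the log2 scale (SE 0.14, adjusted p = 0.16). The log2 ratio of the psaA-psaB unit to the other 3 photosystem I genes, a split chosen after the values were seen and therefore given without a test, was 2.22, 2.34 and 2.41 in fbn6-1, against 2.89, 2.71 and 2.74 in wild type. Every fbn6-1 library was below every wild-type library in this ratio, which no scaling affects because it is taken within a library. The split follows the sign of the fold changes, so a lower fbn6-1 mean was built in and is no support for a difference.

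The balance of the photosystems showed no difference beyond the spread. The log2 ratio of photosystem I to photosystem II counts averaged -3.21 ± 0.129 in fbn6-1 and -3.16 ± 0.317 in wild type (SD, n = 3 each; exact permutation p = 0.8). Without ATCG00020 it averaged -0.84 ± 0.0150 in fbn6-1 and -0.72 ± 0.107 in wild type (exact permutation p = 0.2), and 1 wild-type library lay among the fbn6-1 values.

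**Figure D2:**
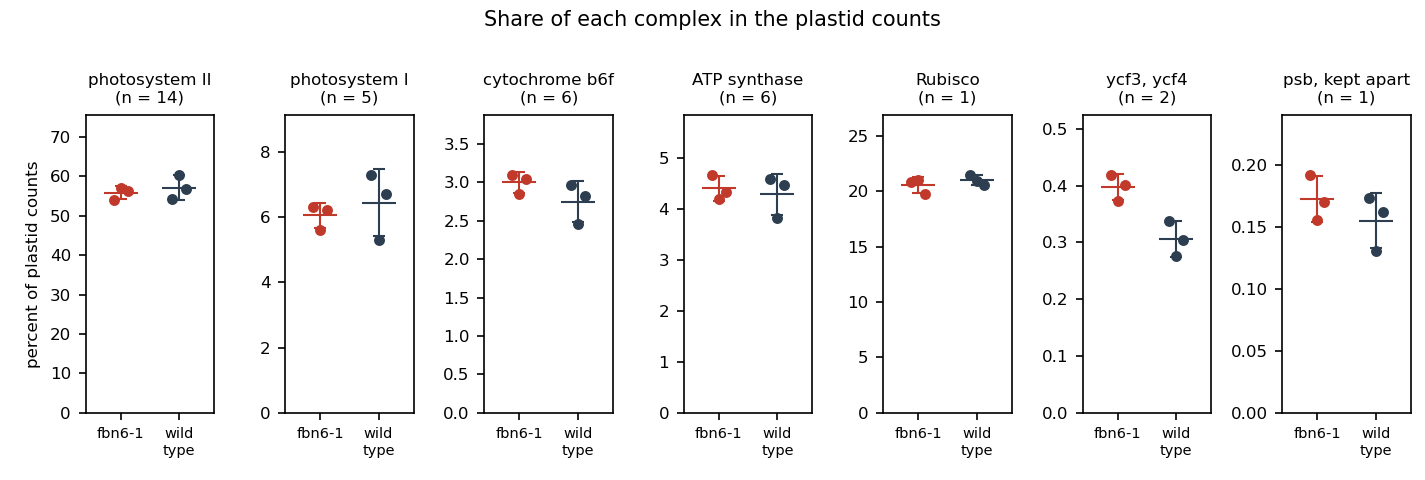
Share of plastid counts held by each class of genes, in percent, for fbn6-1 (left in each panel) and wild type (right). Points are libraries, the long horizontal mark is the mean and the bars are ± 1 SD (n = 3 libraries), and n in a panel title is the number of genes; the groups are separate only for ycf3 and ycf4, at 0.397% ± 0.0235 in fbn6-1 and 0.306% ± 0.0309 in wild type.

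The 6 cytochrome b6f genes encode cytochrome f, cytochrome b6 and smaller subunits of the complex that links the photosystems. They held 3.10%, 2.85% and 3.04% of plastid counts in fbn6-1, against 2.96%, 2.45% and 2.83% in wild type. The means were 3.00% ± 0.13 in fbn6-1 and 2.75% ± 0.265 in wild type, with overlap (exact permutation p = 0.2, adjusted 0.583). Of the 6 genes 0 were called; 4 lay above 0 with TMM scaling (median 0.06) and 6 did relative to the plastid total (median 0.20).

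The highest and lowest fold changes among them were those of ATCG00540 and ATCG00730. ATCG00540 had 3249, 3217 and 3523 CPM in fbn6-1, against 3231, 2760 and 2616 CPM in wild type (log2 fold change 0.21, SE 0.10, adjusted p = 0.308). Only wild-type replicate 2 reached the fbn6-1 values. The gene had 5935, 5548 and 5760 plastid CPM in fbn6-1, against 4777, 4323 and 4375 in wild type, without overlap, and the log2 fold change of 0.36 (SE 0.11) missed the threshold (adjusted p = 0.0779). ATCG00730 had 5731, 5325 and 6080 CPM in fbn6-1, against 6938, 5222 and 6193 CPM in wild type (log2 fold change -0.10, SE 0.11, adjusted p = 0.725) with overlap between the groups.

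ATCG00590, in the petL-petG-psaJ unit, varied more within each genotype than any other member. It had 828, 252 and 767 plastid CPM in fbn6-1, against 703, 226 and 674 in wild type. A single library of each genotype was low and the others lay close together, so the genotypes overlapped almost fully (log2 fold change 0.06 with TMM scaling, SE 0.39, adjusted p = 0.957). ATCG00210, outside the multigene units, lay apart in the groups relative to the plastid total, with 1512, 1488 and 1255 plastid CPM in fbn6-1, against 1215, 1181 and 1129 in wild type (log2 fold change 0.27, SE 0.12, adjusted p = 0.225).

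The 6 ATP synthase genes, for subunits of both the membrane and the catalytic part of the enzyme, held 4.67%, 4.19% and 4.34% of plastid counts in fbn6-1, against 4.58%, 3.83% and 4.46% in wild type. The groups overlapped (means 4.40% ± 0.244 in fbn6-1 and 4.29% ± 0.405 in wild type; exact permutation p = 0.8, adjusted 0.8). Of the 6 genes 0 were called on either scale; 5 lay below 0 with TMM scaling (median -0.10) and 5 lay above 0 relative to the plastid total (median 0.04), so no direction can be given for the enzyme.

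Both extremes of this group lie in the atpI-atpH-atpF-atpA unit. ATCG00150 had 2370, 1938 and 2375 CPM in fbn6-1, against 2604, 1487 and 2220 CPM in wild type (log2 fold change 0.08, SE 0.16, adjusted p = 0.850). Its groups overlapped, and wild-type replicates 2 and 3 were its highest and lowest libraries. ATCG00140 had 5261, 5092 and 5197 CPM in fbn6-1, against 6310, 5707 and 5476 CPM in wild type (log2 fold change -0.17, SE 0.10, adjusted p = 0.388). Here every fbn6-1 library was below every wild-type library with TMM scaling, as for 2013 of the 16584 tested genes. The groups overlapped in plastid CPM (log2 fold change -0.03).

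In the atpB-atpE unit, ATCG00470 had 2253, 2206 and 2341 CPM in fbn6-1, against 2691, 2063 and 2257 CPM in wild type (log2 fold change -0.04, SE 0.11, adjusted p = 0.884). ATCG00480 had 5465, 5373 and 5591 CPM in fbn6-1, against 6579, 5214 and 5580 CPM in wild type (log2 fold change -0.08, SE 0.11, adjusted p = 0.763). In both genes the fbn6-1 libraries lay close together between the wild-type extremes.

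Rubisco is represented by ATCG00490, assigned to the large subunit gene rbcL. It took 20.9%, 21.1% and 19.8% of plastid counts in fbn6-1, against 21.5%, 20.9% and 20.6% in wild type (means 20.6% ± 0.695 in fbn6-1 and 21.0% ± 0.455 in wild type; exact permutation p = 0.5, adjusted 0.583). Its level was 114241, 122126 and 120949 CPM in fbn6-1, against 145516, 133533 and 123294 CPM in wild type. With TMM scaling every fbn6-1 library was thus below every wild-type library. This held for 2 of the 35 members and for 2013 of the 16584 tested genes. The log2 fold change of -0.17 did not pass the test (SE 0.10, adjusted p = 0.433), and relative to the plastid total it was -0.03 with overlap.

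The genes ycf3 and ycf4, whose products are known as assembly factors of photosystem I and are not subunits of it, are ATCG00360 and ATCG00520. ATCG00360 had 1542, 1395 and 1450 plastid CPM in fbn6-1, against 1162, 883 and 1021 in wild type. Every fbn6-1 library was above every wild-type library, with means of 1462 ± 74.2 in fbn6-1 and 1022 ± 139 in wild type (SD, n = 3 each). Relative to the plastid total this gene was called higher in fbn6-1 in the edgeR quasi-likelihood test (log2 fold change 0.52, SE 0.12, adjusted p = 0.0255).

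With TMM scaling ATCG00360 had 844, 809 and 887 CPM in fbn6-1, against 786, 564 and 611 CPM in wild type, again without overlap. The log2 fold change was 0.37 (SE 0.12) and missed the threshold (adjusted p = 0.106). With library totals and no TMM factors the gene was called, at 0.51 (adjusted p = 0.0235, edgeR quasi-likelihood test). The call relative to the plastid total was lost without fbn6-1 replicate 1 (adjusted p = 0.145), replicate 2 (0.0692) or replicate 3 (0.0635), without wild-type replicate 4 (0.0664), and without both fbn6-1 replicate 2 and wild-type replicate 3 (0.0547). It was also lost with the replicate block (adjusted p = 0.410), with the plastid total without the 35 members (0.581, log2 fold change 0.24), with plastid rows only (0.0774) and at a threshold of 0.01, and 5 of 14 alternative settings called the gene. It held without wild-type replicate 2 (0.0285) or replicate 3 (0.0397), and the fold change was above 0 in all 14, from 0.24 to 0.62.

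ATCG00520 had 1450, 1350 and 1564 CPM in fbn6-1, against 1500, 1199 and 1205 CPM in wild type (log2 fold change 0.16, SE 0.11, adjusted p = 0.496). Wild-type replicate 2 lay within the fbn6-1 values on that scale. It had 2648, 2329 and 2558 plastid CPM in fbn6-1, against 2218, 1879 and 2015 in wild type, without overlap (log2 fold change 0.30, SE 0.12, adjusted p = 0.165). Together ATCG00360 and ATCG00520 held 0.419%, 0.372% and 0.401% of plastid counts in fbn6-1, against 0.338%, 0.276% and 0.304% in wild type, without overlap and with the smallest p possible (exact permutation p = 0.1, adjusted over the 7 classes 0.583). ATCG00700, a psb gene kept apart from the photosystem II subunits, held 0.192%, 0.155% and 0.170% of plastid counts in fbn6-1, against 0.173%, 0.131% and 0.162% in wild type. The groups overlapped, with means of 0.172% ± 0.0185 in fbn6-1 and 0.155% ± 0.0218 in wild type (exact permutation p = 0.5, adjusted 0.583).

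**Figure D3:**
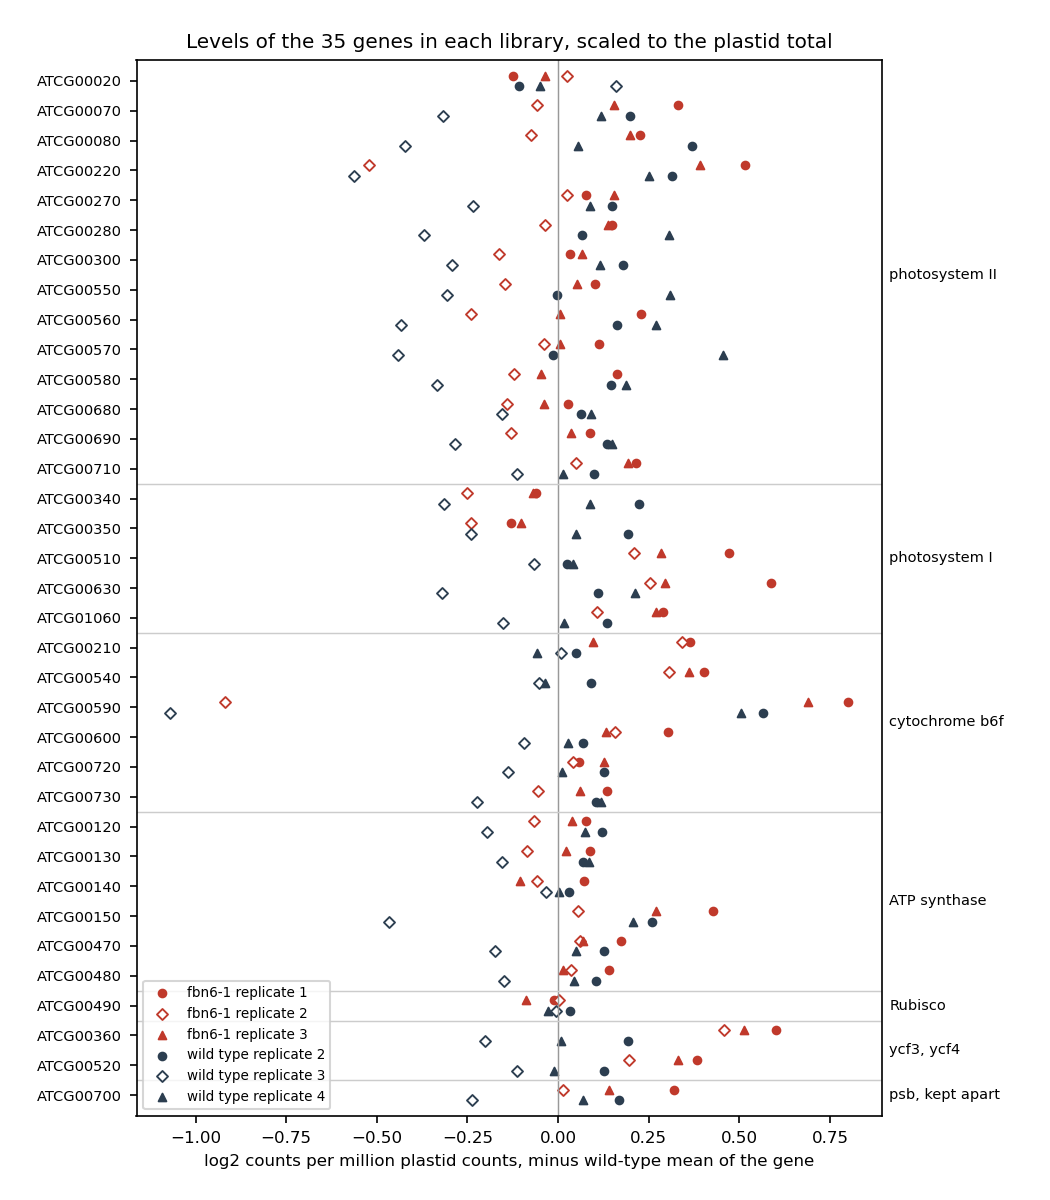
Level of each of the 35 genes in each library, as log2 plastid CPM minus the wild-type mean of that gene; red symbols are fbn6-1 and dark symbols wild type, and open diamonds mark fbn6-1 replicate 2 and wild-type replicate 3. ATCG00360 shows no overlap between the genotypes, and the open diamonds are the lowest of their genotype in most genes, farthest in ATCG00590 and ATCG00220.

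Fold changes lay close together within most transcription units. The range of log2 fold changes with TMM scaling was 0.01 among the 4 genes of psbE-psbF-psbL-psbJ, 0.03 in psaA-psaB, 0.04 in atpB-atpE, 0.05 in psbK-psbI and 0.05 in psaI-ycf4-petA. It was 0.11 in psbD-psbC-psbZ, 0.17 in petL-petG-psaJ, 0.20 in psbB-psbT-psbH-petB-petD and 0.25 in atpI-atpH-atpF-atpA, against 0.68 over all 35 genes. Smaller sets have smaller ranges, and reads from shared transcripts or from overlapping genes can be counted for neighbours. The reference annotation has psbD and psbC overlap by 53 bases and atpE and atpB by 4, so values of these pairs are not fully separate.

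Of the 9 units with more than 1 member, psaI-ycf4-petA was the only one whose share of plastid counts did not overlap between genotypes. Its genes ATCG00510, ATCG00520 and ATCG00540 held 1.10%, 0.991% and 1.05% in fbn6-1, against 0.878%, 0.788% and 0.820% in wild type (exact permutation p = 0.1, adjusted over the 9 units 0.9). Each of the 3 genes lay higher in every fbn6-1 library than in every wild-type library in plastid CPM. On that scale the same held for 18.6% of all tested genes, and 4.72% were lower without overlap. Of the 65 tested plastid rows outside the photosynthesis genes, 29 were higher without overlap and 0 lower. Genes of a unit share transcripts, so these 3 are not independent measurements. For ATCG00510 the values were 2432, 2031 and 2137 in fbn6-1, against 1787, 1676 and 1808 in wild type (log2 fold change 0.32, SE 0.12, adjusted p = 0.132). With TMM scaling the 3 log2 fold changes were between 0.16 and 0.21, and 0 of the genes were called on either scale.

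The other units overlapped between the genotypes. The psaA-psaB unit held 5.21%, 4.69% and 5.25% in fbn6-1, against 6.44%, 4.60% and 5.84% in wild type (exact permutation p = 0.5), and petL-petG-psaJ held 0.687%, 0.514% and 0.576% in fbn6-1, against 0.516%, 0.364% and 0.538% in wild type (exact permutation p = 0.3). In that unit ATCG00600 had the lowest fold change, with 479, 459 and 475 CPM in fbn6-1, against 503, 424 and 432 CPM in wild type (log2 fold change 0.06, SE 0.10, adjusted p = 0.828). Wild-type replicate 3 held the lowest share of both units.

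In psbD-psbC-psbZ, ATCG00270 had 8618, 8802 and 10154 CPM in fbn6-1, against 11180, 8099 and 9479 CPM in wild type (log2 fold change -0.06, SE 0.12, adjusted p = 0.854). ATCG00300 had 2026, 1873 and 2318 CPM in fbn6-1, against 2772, 1886 and 2345 CPM in wild type (log2 fold change -0.17, SE 0.13, adjusted p = 0.558). The groups of both genes overlapped, and wild-type replicate 2 was the highest library. In psbE-psbF-psbL-psbJ, ATCG00550 had 2858, 2547 and 3082 CPM in fbn6-1, against 3284, 2512 and 3599 CPM in wild type. ATCG00560 had 1339, 1024 and 1280 CPM in fbn6-1, against 1579, 986 and 1504 CPM in wild type. These genes had the highest and the lowest fold change of their unit and were hardly apart, at -0.15 and -0.16, with overlap and wild-type replicate 3 lowest in both. In psbK-psbI, ATCG00070 had 1273, 1029 and 1258 CPM in fbn6-1, against 1436, 948 and 1199 CPM in wild type (log2 fold change -0.01, SE 0.14). ATCG00080 had 773, 664 and 847 CPM in fbn6-1, against 1054, 575 and 750 CPM in wild type (log2 fold change -0.06, SE 0.17). In this unit too the wild-type libraries spanned the fbn6-1 values.

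A library of each genotype stood apart from its partners across most of the 35 genes. In plastid CPM, fbn6-1 replicate 2 was the lowest fbn6-1 library in 29 members and wild-type replicate 3 the lowest wild-type library in 32, and both held in 29. The median deviation from the mean of the other libraries of the genotype was -0.15 on the log2 scale in fbn6-1 replicate 2 and -0.33 in wild-type replicate 3. ATCG00590 and ATCG00220 deviated most. ATCG00220, a photosystem II gene, had 3313, 1615 and 3039 plastid CPM in fbn6-1, against 2879, 1567 and 2758 in wild type.

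ATCG00020 deviated the other way and held its highest share of plastid counts in those libraries of each genotype. ATCG00210 also lay above its partners in both, by 0.11 on the log2 scale in fbn6-1 replicate 2 and by only 0.01 in wild-type replicate 3. With ATCG00020 left out of the total, fbn6-1 replicate 2 was the lowest in 22 and wild-type replicate 3 in 21 of the other 34 genes, and both held in 16. Across the 35 genes the deviations of these libraries had a Pearson r of 0.877 and a Spearman rho of 0.795, given as a description, since the genes share libraries, depth and transcripts. Without ATCG00020 they were 0.882 and 0.776. The labels name no batch, and the part of this pattern in the comparisons of genotypes was not tested beyond the values without these libraries given above.

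**Figure D4:**
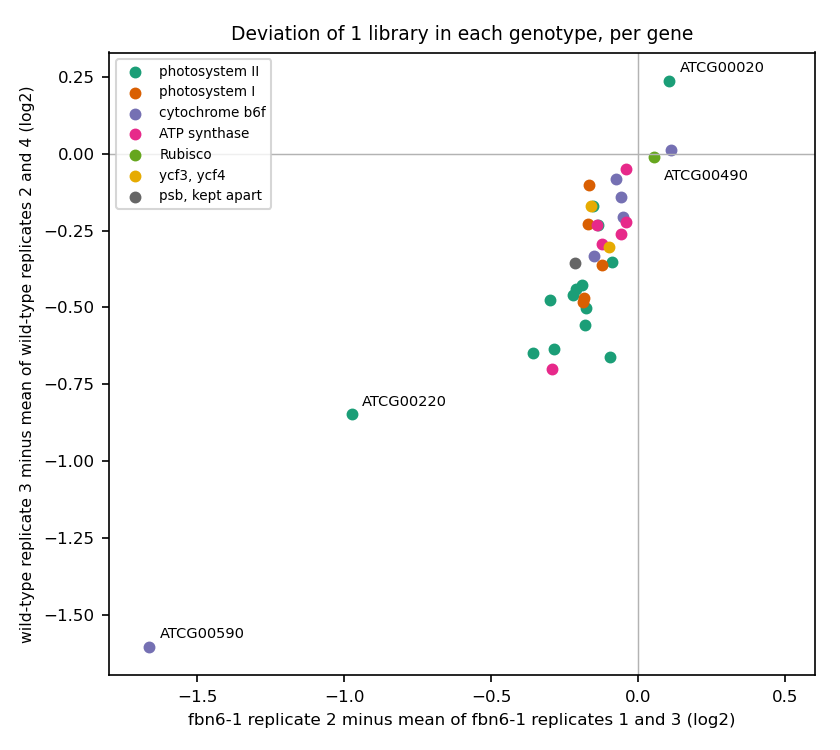
Deviation of fbn6-1 replicate 2 from the mean of fbn6-1 replicates 1 and 3 (horizontal axis) and of wild-type replicate 3 from the mean of wild-type replicates 2 and 4 (vertical axis), as log2 plastid CPM; each point is 1 of the 35 genes, coloured by class. Most genes lie in the lower left, ATCG00590 and ATCG00220 farthest out, while ATCG00020 and, barely, ATCG00210 lie in the upper right.

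The other rows of the plastid genome, which include genes of its own expression machinery and of other functions, had a higher median fold change than the photosynthesis genes. Of these 98 rows 65 passed the filter, and with TMM scaling their median log2 fold change was 0.20, from -0.37 to 0.88, with 51 above and 14 below 0. The edgeR quasi-likelihood test called 2 of them higher and 0 lower with TMM scaling, where 245 of all 16584 tested genes were called higher and 388 lower. Relative to the plastid total it called 12 of them higher and 0 lower, where 455 of all tested genes (2.74%) were called higher and 176 lower. Most of the 12 carry neighbouring identifiers, ATCG00750 to ATCG00820, with log2 fold changes from 0.60 to 0.71. Neighbouring plastid genes can share transcripts, so the 12 are not independent results. The median of the 65 rows on that scale was 0.34, beside 0.14 over all tested genes. The difference between the medians of these sets was not tested. The share of the 35 genes in the plastid counts compares summed counts, in which ATCG00020 and ATCG00490 weigh most, so it does not test those medians. For that share the exact permutation test above gave p = 0.2 with ATCG00020 and p = 0.1, the smallest possible, without it.

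Scaling to the sum of the 98 other plastid rows alone sets the members directly against them. The median of the members was then -0.21, with 30 below and 5 above 0, beside a median of -0.16 over all tested genes on that scale. Of the 35 members 4 were called lower in fbn6-1, where 2.18% of all tested genes were called lower, and 0 higher. They were ATCG00020 at -0.35 (adjusted p = 0.0196), ATCG00340 at -0.41 (adjusted p = 0.0356), ATCG00350 at -0.44 (adjusted p = 0.0196) and ATCG00490 at -0.32 (adjusted p = 0.0405), all by the edgeR quasi-likelihood test. With TMM factors taken from the 100 tested plastid rows, and p adjusted over those rows, 8 members were called lower and ATCG00360 was called higher. In all, 12 of the 100 rows (12.0%) were called lower, and those 8 members are among them. On the scale of the 98 rows the members' median lay close to that of all tested genes, which was 0.14 relative to the whole plastid total. Lower values were thus partly set by dividing by rows that had lain higher in fbn6-1 above. Of the 100 rows behind the TMM factors, 65 are such other rows. The calls depend on which plastid transcripts are taken as the standard, and are not separate evidence that the members were lower.

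**Figure D5:**
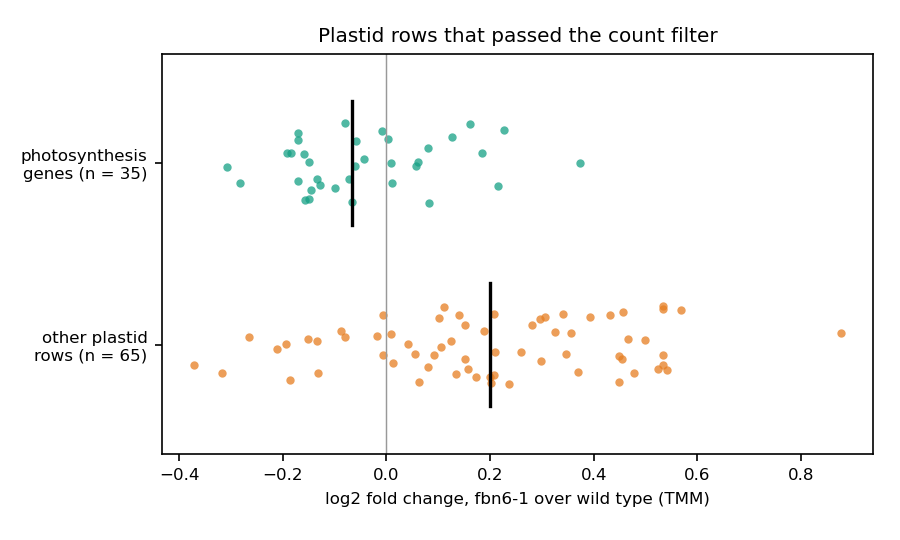
Log2 fold change with TMM scaling, fbn6-1 over wild type, of the 35 photosynthesis genes (top) and of the 65 other plastid rows that passed the filter (bottom); each point is a gene, spread vertically at random, and the black line is the median, -0.07 for the photosynthesis genes and 0.20 for the other rows.

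Nuclear genes for factors that act on these transcripts or assemble these complexes showed no called change. Of 35 listed identifiers the reference gives the listed name to 22, of which 6 act in transcript processing, stability or translation and 16 in assembly. Of these 22 genes 0 were called by the edgeR quasi-likelihood test, where 3.82% of all tested genes were called in either direction. At that share 0 calls in so short a list say little. Without adjustment, 7 of the 22 had a p under 0.05, a larger part than the 17.8% of all tested genes. The median log2 fold change of the 22 was 0.02, with 12 above and 10 below 0. The reference does not give the listed name to the other 13, so no role is stated for them, and 1 that was listed for assembly, AT5G44780, carries the name MORF4 there, that of an organelle RNA editing factor. Of those 13 genes 0 were called and 4 had an unadjusted p under 0.05, which makes 11 of all 35 listed genes with such a p. DESeq2 called 0 of all 35.

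In the list for transcripts the smallest adjusted p belonged to AT3G22150, not named by the reference, which had 21.6, 20.7 and 24.8 CPM in fbn6-1, against 14.8, 12.1 and 18.1 CPM in wild type (log2 fold change 0.56, SE 0.15, adjusted p = 0.0512). HCF173, known for the translation of the psbA transcript, had 139, 133 and 132 CPM in fbn6-1, against 163, 161 and 165 CPM in wild type (log2 fold change -0.28, SE 0.09, adjusted p = 0.113). MRL1, known for the stability of the rbcL transcript, had 105, 106 and 95.4 CPM in fbn6-1, against 90.8, 80.6 and 81.8 CPM in wild type (log2 fold change 0.27, SE 0.10, adjusted p = 0.152). The groups of all 3 genes were separate, although none passed the threshold. These genes were picked for their small p. Groups were also separate for 1801 of the 16584 tested genes on the higher side and for 2013 on the lower side.

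In the list for assembly, HCF164, a thioredoxin-like protein needed for cytochrome b6f, averaged 15.7 ± 0.891 CPM in fbn6-1 and 20.8 ± 2.32 CPM in wild type (log2 fold change -0.42, SE 0.13, adjusted p = 0.0890). CCB4, which takes part in attaching haem to cytochrome b6, averaged 13.6 ± 0.740 CPM in fbn6-1 and 9.86 ± 1.46 CPM in wild type (log2 fold change 0.46, SE 0.15, adjusted p = 0.108). AT3G29185, not named by the reference, averaged 30.3 ± 1.87 CPM in fbn6-1 and 23.4 ± 3.16 CPM in wild type (log2 fold change 0.37, SE 0.12, adjusted p = 0.111). The groups of these 3 genes, also picked for their small p, were separate as well, and their directions differed.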

How the data were processed

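Each library has a file of raw counts, as the authors deposited it. The submitters' processing notes name featureCounts, TopHat2 2.1.1, Trimmomatic and FastQC, and the TAIR10 build. Not given in the sources used here are their settings, the use of strand, the treatment of reads with several matches, and how RNA was selected. Plastid transcripts mostly lack long poly(A) tails, so RNA selection could change their level relative to nuclear transcripts, and values of overlapping or antisense plastid genes are uncertain.

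The counts were analysed with edgeR 4.0.16 in R 4.3.3: filterByExpr (minimum count 10, minimum total 15; 16584 genes kept), TMM factors, and the two-sided quasi-likelihood test with Benjamini-Hochberg adjustment over all tested genes, called under 0.05. The second scale used the same fit with the sum of all ATCG rows as library size and no further factors. SE is the absolute log2 fold change divided by the square root of the F value. The common biological coefficient of variation was 0.124. For shares and ratios an exact permutation test, two-sided, was run over 3 against 3 libraries.

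The members, classes, units and gene lists were chosen with earlier results of these data known. Per-library values are given for ATCG00020, ATCG00490, every called member, and the member with the highest and the lowest fold change of each class and unit; ATCG00210, ATCG00220, ATCG00510 and ATCG00590 were added after their values were seen. Of the factor lists the 3 genes with the smallest adjusted p are named. Alternatives were RLE factors, library totals, nuclear totals, DESeq2 1.42.0, other filters, a threshold of 0.01, other plastid totals, a replicate block and leaving out each library; leaving out both fbn6-1 replicate 2 and wild-type replicate 3 was added after seeing the data. Gene names, where used, came from the RefSeq annotation of TAIR10.1.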

Additional observations from a re-analysis of the deposited data

How the results depend on the processing

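The number of called genes depended on single choices. Over all genes, 245 were called higher and 388 lower; the counts were 508 and 195 with library totals, 505 and 727 without the filter, 69 and 151 at an adjusted p under 0.01, 73 and 118 with the replicate block, and 84 to 463 higher and 171 to 775 lower when single libraries were left out. Of the members, 0 were called higher and 0 lower with TMM; 1 was higher with library totals (ATCG00360), 1 higher (ATCG00360) and 1 lower (ATCG00350) without the filter, and 0 to 1 higher and 0 to 2 lower without single libraries. Relative to the plastid total 1 was called higher; this became 0 with the total without the 35 members, with plastid rows only, at 0.01, with the replicate block and without both fbn6-1 replicate 2 and wild-type replicate 3, and 0 to 1 without single libraries. Called lower were 4 with the total without the 35 members and 8 with TMM within plastid rows, where ATCG00120 and ATCG00130 turned to -0.21 and -0.22 from 0.01 and 0.00. The log2 ratio of shares became -0.0461 for the members and -0.0773 for Rubisco without ATCG00020, each -0.03 with it. The cause of these shifts was not tested. Of the other shares and ratios under their alternatives, 8 of 9 for the members, 62 of 63 for classes, 81 of 81 for units, 9 of 9 for the plastid share and 8 of 8 for the photosystem ratio moved by less than 1 SD. The sign of the difference nevertheless turned in 6 of the 63 for classes, 17 of the 81 for units, 4 of the 9 for the plastid share and 2 of the 8 for the photosystem ratio, so no direction is given for the shares and ratios that turned; without single libraries the log2 difference in the photosystem ratio ran from -0.22 to 0.08 and that of the psbD-psbC-psbZ share from -0.09 to 0.18. Replicates 2 and 3 are numbers shared by the genotypes, and the same-numbered libraries had correlations of deviations of -0.04 and 0.10 over all genes, and -0.80 and -0.77 over members. Between differently numbered libraries they ran from -0.21 to 0.13 over all genes and from -0.82 to 0.88 over members. Deviations from a mean of 3 libraries are tied to each other, so these values cannot settle whether the numbers pair the samples. The replicate block called 0 members on both scales. Single members not called on either side changed sign most often with the total without the 35 members (18 of 35). Depth of 8668956 counts or more leaves counting error small for these genes, so the spread between 3 libraries limits them.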
